A study of Mus musculus with 12 samples.

Results

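The genes described here encode proteins of the complement system and of blood coagulation, 42 in all, from fibrinogen and the clotting factors to the lectin pathway and the terminal complement proteins. They were chosen by name, and each was followed in each tissue through the probe set assigned to it alone by the probe annotation of the array, taking the probe set with the highest mean over the 6 samples of that tissue. Of the 42 genes, 39 had such a probe set, out of 18194 genes in the series that did. C3, the central complement protein, Cfd, the protease that starts the alternative pathway, and Cpb2, an inhibitor of fibrinolysis, had none and were not analysed here. The study hybridised RNA from liver and from quadriceps of C57BL/6 offspring, 4 weeks old, to Affymetrix arrays, with 3 samples for each diet and tissue. The NP+tau dams received the normal protein diet (20% casein) with 1% taurine in the drinking water. By the paper, the diets ran from the first day of pregnancy until birth. The NP dams received the same diet with plain water. Taurine was thus given to the mothers only, and no pup was treated itself. By the methods, no dam gave more than 1 pup and both tissues were taken from each pup, so that the samples of a group are separate animals. The deposited values are log2 expression values, and all differences below are NP+tau minus NP on that scale.

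Complement and coagulation both work as chains of proteases that circulate as inactive precursors and activate one another by cleavage. In coagulation, thrombin converts fibrinogen to fibrin, antithrombin and the protein C system hold thrombin back, and plasmin later dissolves the clot. In complement, the classical, lectin and alternative pathways meet at C3 and end in a membrane pore built of the terminal components. Hepatocytes make most of these proteins, whereas endothelial cells, platelets and macrophages supply some of them, among them von Willebrand factor, thrombomodulin, properdin and the A subunit of factor XIII.

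Markers of each tissue were bright in the tissue that the labels name. Alb, the hepatocyte product albumin, lay between 14.95 and 15.05 in the 6 livers, and 16 markers of skeletal muscle fibres averaged 13.96 to 14.20 in the 6 muscles. Several livers stood apart. The array of NP+tau liver replicate 1 differed from the median array by 0.45, against 0.08 to 0.17 for the other 5 livers. This is the median absolute difference over the probe sets that passed the filter given below. The 13 muscle fibre markers that passed it averaged 5.50 in that liver, against 4.55 to 4.64 in the other 5 livers. NP liver replicate 1 had a mean of 8.22 over 13 neutrophil markers, against 4.96 to 5.45 in NP+tau livers and 5.87 and 6.08 in the other NP livers, and its 13 acute phase genes averaged 10.45, against 8.78 to 8.89 in NP+tau livers and 9.07 and 9.41 in the other NP livers. Xist, the transcript of the inactive X chromosome, was at 11.08, 5.96 and 5.07 in NP+tau livers, against 11.75, 11.63 and 11.78 in NP livers. In muscle as in liver, the NP samples and NP+tau replicate 1 were Xist-high and the other NP+tau samples were not. Eif2s3y, a Y chromosome gene, was at 3.64, 9.37 and 9.24 in NP+tau muscles, against 3.49, 3.71 and 3.48 in NP muscles. By these markers only NP+tau replicates 2 and 3 were male, although the methods state that each group on the arrays held both sexes. Sex and diet were thus partly confounded, and their parts in the differences below cannot be told apart.

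In liver, all 39 measured members passed the filter on dim probe sets, which required the highest of the 6 values to reach 4.60. No member, and no probe set of the array, differed between NP+tau and NP livers at an adjusted p below 0.05 (limma, 0% of 29274 probe sets, adjusted p of the members 0.718 to 0.988). At an unadjusted p below 0.05, 4 members were lower in NP+tau livers and 0 were higher. The 4 were Vwf, C6, Fgb and F3, which make up 10.3% of the members, against 4.32% of all genes lower at that level and 0.831% higher. The groups did not overlap, with all NP+tau livers lower, for 7 members (17.9%, against 9.22% of all genes), namely Vwf, Pros1, C6, Fgb, F3, Fga and Fgg. F3 passed the filter through the NP livers alone, and without it 3 of 38 members were lower at that level (7.89%) and 6 did not overlap (15.8%). All NP+tau livers were higher for 2 members, Masp2 and C8g (5.13%, against 5.95% of all genes). Over all members, 22 of 39 differences lay below 0 (56.4%, against 53.7% of all genes), and the median difference was -0.04, as it was over all 14202 genes. Centring each array on its median moved every difference up by 0.11, and 15 of 39 members then lay below 0.

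The count of 4 depended on single livers. It was 7 without NP+tau replicate 1, 1 without NP+tau replicate 2 or without NP replicate 3, and 2 without NP+tau replicate 3 or without NP replicate 2. Without NP replicate 3, 5 members were higher at an unadjusted p below 0.05 (Mbl1, Masp2, C8a, C8b and C8g). Vwf had an unadjusted p below 0.05 under all 15 alternatives run, Fgb and C6 under 9 of 15, and F3 under 7 of 15.

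**Figure D1:**
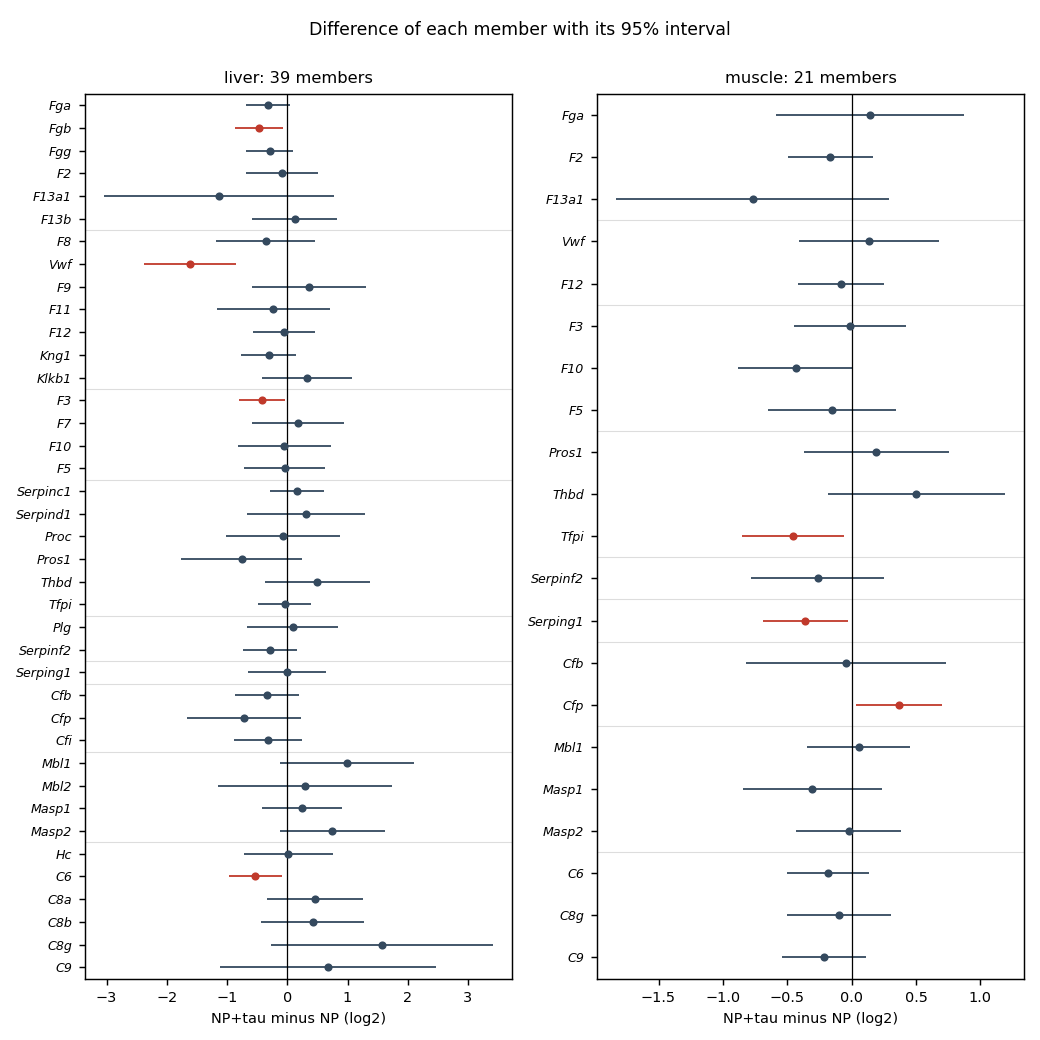
NP+tau minus NP difference of each member on the log2 scale (points) with its 95% interval from limma (bars), for the 39 members kept in liver (left) and the 21 kept in muscle (right), with grey lines between the groups of proteins and red for an unadjusted p below 0.05. In liver the points at the bottom, for the lectin pathway and terminal complement, lie mostly right of 0 with wide intervals, and Vwf lies farthest left at -1.61.

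Fibrinogen, the precursor of the fibrin clot, is built of chains encoded by Fga, Fgb and Fgg, which are neighbouring genes on chromosome 3 in the RefSeq gene order of assembly GRCm38.p6. All of them were lower in NP+tau livers. Fga was at 13.48, 13.54 and 13.59 in NP+tau livers, against 13.82, 13.82 and 13.92 in NP livers, a difference of -0.32 (SE 0.15, unadjusted p = 0.0778, adjusted p = 0.718, limma). Fgb was at 13.61, 13.86 and 13.91 in NP+tau livers, against 14.31, 14.21 and 14.28 in NP livers, a difference of -0.47 (SE 0.17, 1.39-fold, unadjusted p = 0.0261, adjusted p = 0.718). Fgg was at 13.96, 13.70 and 13.95 in NP+tau livers, against 14.16, 14.14 and 14.19 in NP livers, a difference of -0.29 (SE 0.16, unadjusted p = 0.116, adjusted p = 0.718). For each chain every NP+tau liver lay below every NP liver. The 3 NP livers spanned 0.10 for Fga, 0.10 for Fgb and 0.04 for Fgg, and the NP+tau livers spanned 0.11, 0.30 and 0.26. An exact permutation test gave p = 0.1 for each chain, the smallest that 3 samples against 3 allow. With the arrays centred, Fgb no longer had an unadjusted p below 0.05. Of the 13 acute phase genes, 12 had differences below 0 in liver, against 53.7% of all genes. Their part in the fibrinogen values was not tested.

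The promoters of the fibrinogen genes are printed because these 3 neighbours differed in the same direction. The windows run from 250 bases before to 50 bases after the RefSeq start of each gene, on the strand of the gene (GRCm38.p6). Capitals mark every match, on either strand, to CTGGGA, the core of the IL-6 response elements described in rat fibrinogen genes, to GTTAAT, one arm of the site of the hepatocyte factor HNF1, and to TTNNGNAA, a loose form of the C/EBP site, where N is any base. No base belonged to more than 1 motif.
Fga, chr3:83025903-83026202 (+): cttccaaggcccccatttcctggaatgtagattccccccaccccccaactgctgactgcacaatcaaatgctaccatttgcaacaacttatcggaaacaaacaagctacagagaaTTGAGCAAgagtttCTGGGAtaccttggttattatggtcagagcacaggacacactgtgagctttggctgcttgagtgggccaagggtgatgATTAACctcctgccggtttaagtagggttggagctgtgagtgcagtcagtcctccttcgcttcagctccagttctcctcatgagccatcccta
Fgb, chr3:83049814-83050113 (-): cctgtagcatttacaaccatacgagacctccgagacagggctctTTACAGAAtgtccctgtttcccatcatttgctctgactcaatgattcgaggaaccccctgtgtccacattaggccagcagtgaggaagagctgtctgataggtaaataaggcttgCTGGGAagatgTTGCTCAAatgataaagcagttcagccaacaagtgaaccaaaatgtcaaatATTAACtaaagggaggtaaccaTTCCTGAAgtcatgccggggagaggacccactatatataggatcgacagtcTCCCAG
Fgg, chr3:83007474-83007773 (+): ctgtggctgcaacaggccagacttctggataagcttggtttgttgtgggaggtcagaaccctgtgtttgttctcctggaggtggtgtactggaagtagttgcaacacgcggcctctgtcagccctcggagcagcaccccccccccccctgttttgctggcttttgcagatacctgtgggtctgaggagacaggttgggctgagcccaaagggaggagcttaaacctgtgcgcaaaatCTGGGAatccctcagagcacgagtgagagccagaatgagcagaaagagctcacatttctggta
CTGGGA stood in all 3 windows, at -121 in Fga, at -91 in Fgb and at -13 in Fgg counted from the start, with a further match on the other strand of Fgb at 45. GTTAAT, read on the other strand, stood in Fga at -43 and in Fgb at -29. TTNNGNAA stood in Fga at -135 and on the other strand of Fgb at -206, -80 and -7. Of the 32851 promoter windows of that length, 31.8% held CTGGGA, 7.1% held GTTAAT and 40.7% held TTNNGNAA. Windows were given for 33 of the 42 members, of which 18 held CTGGGA, 8 held GTTAAT and 17 held TTNNGNAA. These matches describe letters only, and binding was not measured.

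The other genes of this group did not share that separation in liver. F2, which encodes prothrombin, lay between 12.73 and 13.26 in NP+tau livers and between 12.75 and 13.41 in NP livers, a difference of -0.09. F13b, the carrier subunit of the fibrin cross-linking factor XIII, differed by 0.12. F13a1, the catalytic subunit, had one of the 3 largest absolute differences of all members, -1.14 (SE 0.81, unadjusted p = 0.202), with 4.86, 4.47 and 4.43 in NP+tau livers, against 7.77, 4.45 and 4.95 in NP livers. That difference came from NP liver replicate 1, and it was -0.11 without it. The same liver had the highest mean over 17 macrophage and Kupffer cell markers, at 9.65, against 7.35 to 8.20 in NP+tau livers and 8.66 and 8.90 in the other NP livers. All 17 markers were lower in NP+tau livers, and their part in the value of F13a1 was not tested.

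**Figure D2:**
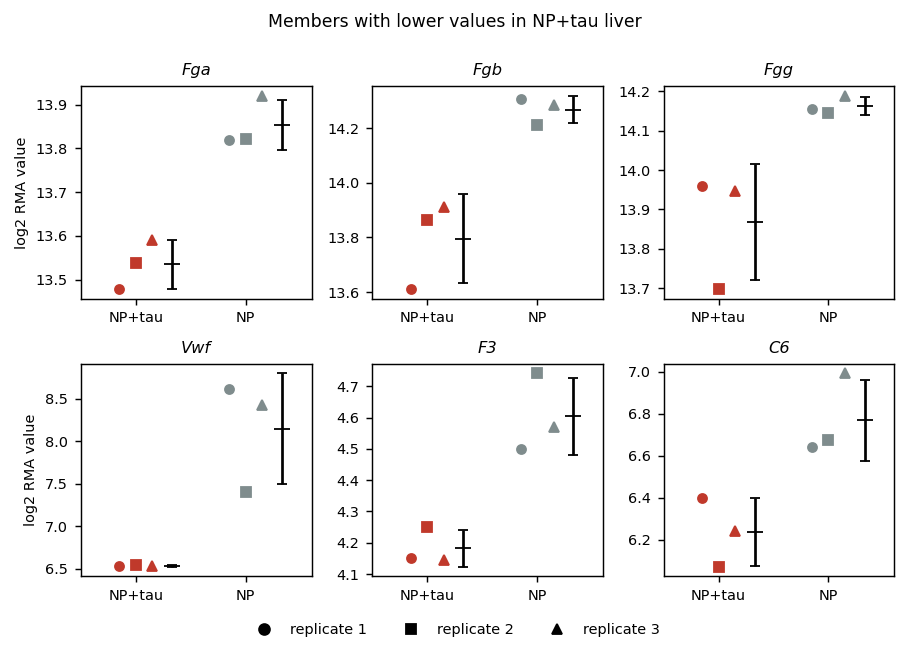
Log2 RMA values of 6 members in each liver, NP+tau (red, left) and NP (grey, right), with marker shape for the replicate and a black bar for the mean ± SD (n = 3), each panel on its own axis. The 6 were taken from the members whose groups did not overlap, so in every panel all 3 NP+tau livers lie below all 3 NP livers by that choice. The NP+tau values of Vwf fall within 0.02 of one another.

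Of the contact and intrinsic pathway, which starts clotting on charged surfaces and amplifies it through factors VIII and IX, 5 of 7 members had differences below 0 in liver. Vwf, which encodes von Willebrand factor, the large multimer that carries factor VIII and tethers platelets to the vessel wall, had the largest absolute difference of all members. It was at 6.53, 6.55 and 6.53 in NP+tau livers, against 8.61, 7.40 and 8.43 in NP livers, a difference of -1.61 (SE 0.32, 3.05-fold, unadjusted p = 0.00162, adjusted p = 0.718, limma). The NP+tau livers were nearly identical, and the NP livers spread over more than 1 log2 unit with NP replicate 2 closest to the NP+tau livers. Von Willebrand factor is a product of endothelial cells and megakaryocytes rather than of hepatocytes. Of 9 platelet and megakaryocyte markers, 7 were lower in NP+tau livers, with means of 5.58 to 5.66 in NP+tau livers, against 6.02 to 6.76 in NP livers, and among them Pf4, the platelet factor 4 gene, was at 5.91, 6.21 and 6.73 in NP+tau livers, against 9.75, 7.82 and 8.82 in NP livers. Among the NP livers Pf4 was highest in replicate 1, as Vwf was, whereas the mean of the list was highest in replicate 3 (6.68, 6.02 and 6.76 in NP replicates 1 to 3). Of 14 endothelial markers, 12 were lower in NP+tau livers, with means of 6.91 to 7.65 in NP+tau livers, against 7.32 to 7.70 in NP livers. The part of these cells in the value of Vwf was not tested, and in whole tissue fewer cells of a type and less RNA per cell cannot be told apart.

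The other members of this pathway overlapped between the groups. F8, factor VIII, differed by -0.36, F11, factor XI, by -0.23, F12, the factor that starts contact activation, by -0.06, and Kng1, the kininogen from which bradykinin is cut, by -0.31. F9, factor IX, was higher by 0.36 and Klkb1, plasma prekallikrein, by 0.32. Their unadjusted p ranged from 0.157 for Kng1 to 0.784 for F12. A second probe set of Kng1 gave -0.03. F11 and Klkb1 are neighbours on chromosome 8 and had differences of opposite sign, with F11 lowest in NP+tau liver replicate 1 (7.67, against 8.69 to 9.22 in the other 5 livers) and Klkb1 lowest in NP liver replicate 1 (9.69, against 10.21 to 10.81).

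Among the genes of the tissue factor and common pathway, F3, which encodes tissue factor, the membrane protein that triggers clotting, was at 4.15, 4.25 and 4.15 in NP+tau livers, against 4.50, 4.74 and 4.57 in NP livers. The difference was -0.42 (SE 0.16, 1.34-fold, unadjusted p = 0.0353, adjusted p = 0.718). The groups did not overlap, but 5 of the 6 values lay below the limit of 4.60, so that F3 passed the filter through NP liver replicate 2 alone. F7, the partner of tissue factor, differed by 0.18, F10, which cuts prothrombin, by -0.05, and F5, its cofactor, by -0.04. F7 and F10 are neighbours on chromosome 8, and both were lowest in NP liver replicate 1 (8.67 and 10.93) and highest in NP liver replicate 3 (9.89 and 12.10), so that the NP livers spanned the NP+tau livers on either side. The 3 probe sets of F10 gave -0.05 to -0.17, and the second probe set of F5 gave 0.28.

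The coagulation inhibitors divided evenly in liver, with 3 of 6 above 0. Pros1, which encodes protein S, the cofactor of activated protein C, was at 6.73, 8.31 and 8.29 in NP+tau livers, against 8.51, 8.55 and 8.55 in NP livers, a difference of -0.76 (SE 0.43, unadjusted p = 0.118). The groups did not overlap, and most of the difference lay in NP+tau replicate 1, the array that stood apart, without which it was -0.23. Thbd, thrombomodulin, the endothelial receptor that turns thrombin into an activator of protein C, was at 6.28, 6.26 and 7.29 in NP+tau livers, against 6.44, 5.55 and 6.35 in NP livers, a difference of 0.50 (SE 0.37, unadjusted p = 0.219) with overlapping groups. It was 0.16 without NP+tau replicate 3 and 0.22 without NP replicate 2. Serpinc1, which encodes antithrombin, differed by 0.17, and Serpind1, heparin cofactor II, by 0.32, both with their lowest value in NP liver replicate 1 (13.46 and 10.20). Proc, protein C, differed by -0.08 and Tfpi, the inhibitor of the tissue factor complex, by -0.04. Other, dimmer probe sets of Tfpi gave -0.22 to -0.45. Of fibrinolysis, Plg, plasminogen, differed by 0.09 and Serpinf2, which encodes the main plasmin inhibitor, by -0.29 (SE 0.19, unadjusted p = 0.171). Serping1, which encodes C1 inhibitor, the serpin that restrains both the classical pathway and the contact system, was even between the groups, with means of 12.10 ± 0.16 in NP+tau livers and 12.12 ± 0.50 in NP livers (SD, n = 3 each).

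Of the alternative pathway, all 3 measured members had differences below 0 in liver, none of them with an unadjusted p below 0.05. Cfb, factor B, the protease of the alternative C3 convertase, differed by -0.34 (SE 0.22, unadjusted p = 0.178), and Cfi, factor I, which inactivates C3b, by -0.33 (SE 0.24, unadjusted p = 0.212). Cfp, which encodes properdin, the stabiliser of that convertase made by leukocytes, was at 8.77, 7.37 and 7.92 in NP+tau livers, against 9.22, 8.29 and 8.70 in NP livers, a difference of -0.72 (SE 0.40, unadjusted p = 0.116). The groups overlapped through NP+tau replicate 1, and without it the difference was -1.09 with an unadjusted p of 0.0153. It was -0.39 without NP+tau replicate 2 and -0.48 without NP replicate 1. A second, dimmer probe set of Cfp gave 0.04.

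The lectin pathway and the terminal proteins lay mostly on the other side of 0 in liver. All 4 lectin pathway members were higher in NP+tau livers, with a median difference of 0.52, and 5 of 6 terminal members were, with a median of 0.44, and none of these 9 had an unadjusted p below 0.05. C8g, the gamma chain of C8, had the second largest absolute difference of all members and was at 12.37, 12.19 and 11.98 in NP+tau livers, against 8.63, 11.34 and 11.85 in NP livers, a difference of 1.57 (SE 0.78, 2.98-fold, unadjusted p = 0.0824, adjusted p = 0.718). Mbl1, a mannose-binding lectin that recognises microbial sugars, was at 10.45, 10.69 and 10.85 in NP+tau livers, against 8.61, 9.81 and 10.60 in NP livers, a difference of 0.99 (SE 0.47, unadjusted p = 0.0747). Masp2, the protease that lectins activate, was at 10.53, 10.28 and 10.10 in NP+tau livers, against 8.71, 9.90 and 10.05 in NP livers, a difference of 0.75 (SE 0.37, unadjusted p = 0.0814). In each of these genes the NP+tau livers lay close together and NP liver replicate 1 lay far below the rest. Without NP replicate 1 the differences were 0.59 for C8g, 0.46 for Mbl1 and 0.33 for Masp2. C9, which forms the wall of the pore, showed the same form with 9.19, 8.65 and 9.32 in NP+tau livers, against 6.56, 8.74 and 9.82 in NP livers (difference 0.68, SE 0.76), as did Mbl2, the second mannose-binding lectin, with 11.95, 11.85 and 12.55 in NP+tau livers, against 10.34, 12.41 and 12.73 in NP livers (difference 0.29, SE 0.61). Both turned to the other side of 0 without NP replicate 1, at -0.23 for C9 and -0.45 for Mbl2. C8a and C8b, neighbouring genes on chromosome 4 for the other chains of C8, differed by 0.46 and 0.42, and Hc, which encodes C5, by 0.02.

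Masp1, the other lectin-associated protease, depended on the probe set. The brightest gave a difference of 0.24 in liver (SE 0.28, unadjusted p = 0.416). Of its other probe sets that were kept, 1 gave -0.42 (unadjusted p = 0.0529), 1 gave -0.47 (unadjusted p = 0.0412) and 1 gave -0.21. The second probe set of Masp2 gave 0.32. C6, which joins C5b at the start of the pore, was the exception among the terminal proteins, at 6.40, 6.07 and 6.24 in NP+tau livers, against 6.64, 6.68 and 6.99 in NP livers, a difference of -0.53 (SE 0.19, 1.45-fold, unadjusted p = 0.0247, adjusted p = 0.718). Every NP+tau liver lay below every NP liver for C6.

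NP liver replicate 1 had the lowest of the 6 values for 19 of the 39 members (48.7%), against 19.8% of all genes. NP liver replicate 3 had the highest value for 18 members (46.2%), against 9.91% of all genes, and NP+tau liver replicate 1 the lowest for 12 (30.8%, against 41.3% of all genes). Relative to the median of the other 5 livers, the median member was at -0.51 in NP replicate 1 and at 0.33 in NP replicate 3. NP replicate 1 thus lay at the low end, and NP replicate 3 at the high end, for more of these genes than any other liver did. Without NP replicate 1, the median difference of the members was -0.28 with 30 of 39 below 0, the lectin median was 0.17, and the terminal median was -0.04 with 3 of 6 above 0. Without NP replicate 3, the median difference was 0.18 with 18 of 39 below 0. The 15 hepatocyte markers averaged 13.90 to 14.00 in NP+tau livers, against 13.69 in NP replicate 1 and 14.02 and 14.03 in the other NP livers. The part of the neutrophil, acute phase or hepatocyte levels of NP replicate 1 in these values was not tested.

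**Figure D3:**
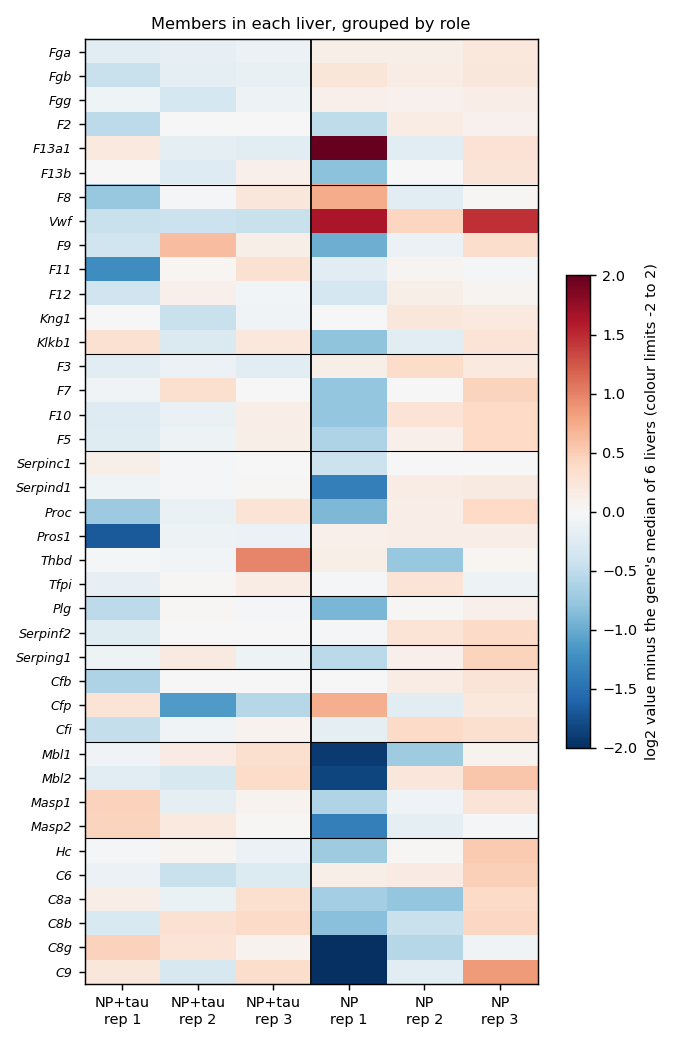
Each member (rows, grouped by role with black lines) in each liver (columns, NP+tau left of the vertical line and NP right of it), coloured by its log2 value minus the median of the gene over the 6 livers, with colours limited to -2 and 2. The NP replicate 1 column is blue for most hepatocyte products and red for F13a1, Vwf, F8 and Cfp, and the NP replicate 3 column is red for most members.

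Other genes of both systems were followed in liver from lists of complement components, complement regulators and receptors, and further coagulation genes. Of 66 genes listed, 54 had a probe set and 48 were kept, of which 6 were lower in NP+tau livers and 0 higher at an unadjusted p below 0.05, and 0 at an adjusted p below 0.05 (limma). Of all genes, 4.32% were lower and 0.831% higher at the unadjusted level. All 10 further complement components measured had differences below 0, against 53.7% of all genes. The 4 genes with the smallest unadjusted p were C1qa, C1qc, Vsig4 and Itgb2. C1qa, a chain of the C1q recognition molecule of the classical pathway, was at 8.80, 8.19 and 8.79 in NP+tau livers, against 10.39, 9.42 and 9.61 in NP livers, a difference of -1.21 (SE 0.31, unadjusted p = 0.00591, adjusted p = 0.718). C1qc, another chain of it, differed by -1.27 (SE 0.40), Vsig4, a complement receptor of Kupffer cells, by -1.33 (SE 0.34), and Itgb2, the beta chain of the leukocyte receptors for C3 fragments, by -1.57 (SE 0.52). For these 4 genes every NP+tau liver lay below every NP liver. C1q and Vsig4 are macrophage products and also stand on the macrophage marker list whose 17 genes were all lower in NP+tau livers.

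In quadriceps muscle, 21 of the 39 measured members were kept and 18 lay below the limit of 4.49 in all 6 samples, with values of 3.28 to 4.47. Those below were Fgb, Fgg, F13b, F8, F9, F11, Kng1, Klkb1, F7, Serpinc1, Serpind1, Proc, Plg, Cfi, Mbl2, Hc, C8a and C8b. No member or other probe set differed between NP+tau and NP muscles at an adjusted p below 0.05 (limma, 0% of 29274 probe sets, adjusted p of the members 0.707 to 0.982). At an unadjusted p below 0.05, 2 members were lower in NP+tau muscles (9.52%, against 2.09% of all genes) and 1 was higher (4.76%, against 4.24%). The groups did not overlap for 5 members that were lower (23.8%, against 7.25% of all genes), namely Tfpi, Serping1, F10, C6 and F2, and for 1 that was higher (4.76%, against 8.44%), Cfp. Differences were below 0 for 15 of the 21 members (71.4%, against 45.4% of all genes), with a median of -0.10, against 0.03 over all 13810 genes. A dim gene can pass the filter through its brighter group alone. F10, F2, C9 and F5 passed through NP muscles alone, and Fga and Mbl1 through NP+tau muscles alone. The filter itself thus favoured a lower NP+tau value for F10 and F2, which are among the members that did not overlap, and for C9 and F5. It favoured a higher value for Fga and Mbl1. The counts and shares above were not recomputed without these members. They therefore describe the genes kept and do not stand for all members. Over all 39 with a probe set, with no filter, 27 differences were below 0 (69.2%), against 52.6% of all 18194 genes with a probe set. Groups that did not overlap were not counted over all genes without the filter, so no such count is given for the 39.

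Tfpi, the inhibitor of the tissue factor complex that endothelial cells display, was at 6.53, 6.54 and 6.30 in NP+tau muscles, against 6.92, 7.13 and 6.69 in NP muscles, a difference of -0.46 (SE 0.17, 1.37-fold, unadjusted p = 0.0292, adjusted p = 0.707, limma). Serping1, C1 inhibitor, was at 9.67, 9.52 and 9.54 in NP+tau muscles, against 10.08, 9.85 and 9.87 in NP muscles, a difference of -0.36 (SE 0.14, 1.28-fold, unadjusted p = 0.0363, adjusted p = 0.707). Cfp, properdin, was at 7.05, 7.13 and 7.25 in NP+tau muscles, against 6.86, 6.62 and 6.84 in NP muscles, a difference of 0.37 (SE 0.14, 1.29-fold, unadjusted p = 0.0365, adjusted p = 0.707). Each of the 3 genes had groups that did not overlap. The other probe sets did not repeat the values of Tfpi and Cfp, since the other 3 of Tfpi gave -0.05 to 0.08 and the other of Cfp, which was the brighter in liver, gave -0.06. The counts also rested on single muscles, and 0 members were lower at an unadjusted p below 0.05 without NP replicate 1 or without NP replicate 2, and 1 without NP+tau replicate 2 or without NP+tau replicate 3. Cfp no longer had an unadjusted p below 0.05 without NP+tau replicate 2 or 3 or without NP replicate 2 or 3.

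F13a1 had the largest absolute difference in muscle, -0.77 (SE 0.45, unadjusted p = 0.130), with 8.20, 6.79 and 8.63 in NP+tau muscles, against 8.69, 8.39 and 8.84 in NP muscles. The groups overlapped, and NP+tau replicate 2 lay far below the other 5, so that the difference was -0.23 without it. The same muscle had the lowest mean over 15 macrophage markers, at 5.86, against 6.35 and 6.68 in the other NP+tau muscles and 6.25 to 6.86 in NP muscles, and the part of these cells was not tested. Thbd, thrombomodulin, was at 8.25, 8.26 and 8.32 in NP+tau muscles, against 7.13, 7.87 and 8.33 in NP muscles, a difference of 0.50 (SE 0.29, unadjusted p = 0.129). The NP+tau muscles lay close to the highest NP muscle, and the other 2 NP muscles lay below them. Without NP replicate 1 the difference was 0.18, and without NP replicate 3 it was 0.78. Of 14 endothelial markers, 11 were higher in NP+tau muscles, with means of 7.84 to 7.92 in NP+tau muscles, against 7.60 to 7.76 in NP muscles, and the part of endothelial cells in the values of Thbd and Tfpi was not tested.

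**Figure D4:**
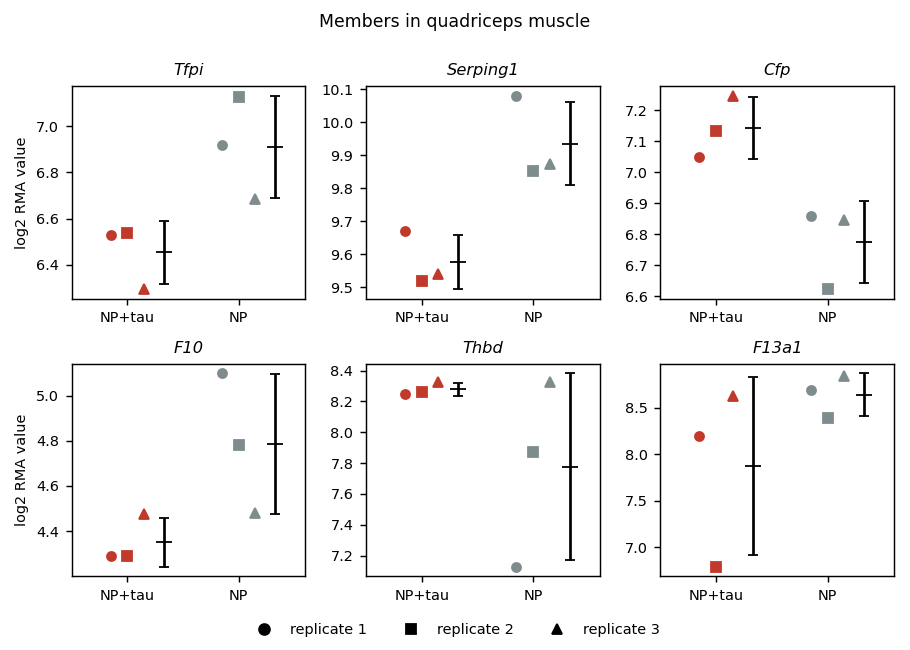
Log2 RMA values of 6 members in each quadriceps muscle, NP+tau (red, left) and NP (grey, right), with marker shape for the replicate and a black bar for the mean ± SD (n = 3), each panel on its own axis. Tfpi, Serping1 and F10 are lower in all NP+tau muscles and Cfp is higher in all of them, whereas Thbd and F13a1 overlap and spread widely in one group.

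F10 was at 4.29, 4.29 and 4.48 in NP+tau muscles, against 5.10, 4.78 and 4.48 in NP muscles, a difference of -0.43 (SE 0.19, unadjusted p = 0.0541), which was -0.28 without NP replicate 1. The groups were separated only by the third decimal place between replicate 3 of each, and all NP+tau values lay under the limit of 4.49. Another 10 members kept in muscle had values between 3.42 and 5.46. Of these, C9 differed by -0.21, C6 by -0.19, F2 by -0.17, F5 by -0.15, C8g by -0.10, F12 by -0.08, Cfb by -0.05, Masp2 by -0.02, Mbl1 by 0.06 and Fga by 0.15. Of 10 hepatocyte markers kept in muscle, 9 were lower in NP+tau muscles, against 45.4% of all genes. The 10 averaged 5.25 to 5.59 in NP+tau muscles, against 5.61 to 6.25 in NP muscles. Among them Apoa2 and Fgl1 passed the filter through NP muscles alone, which favoured their direction, and 5 of the 15 markers measured were not kept. The part of these markers in the values of the members was not tested. Masp1 (4.76 to 5.77 in the 6 muscles), read in muscle by another probe set than in liver, differed by -0.31 and Serpinf2 by -0.26. Vwf differed by 0.13, Pros1 by 0.19 and F3 by -0.02, with overlapping groups.

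Of the other complement and coagulation genes, 40 of the 54 measured were kept in muscle, with 1 higher and 0 lower at an unadjusted p below 0.05 and 0 at an adjusted p below 0.05 (limma). Vtn, which encodes vitronectin, a regulator of the terminal pathway, was the higher one, at 7.83, 7.76 and 7.56 in NP+tau muscles, against 6.98, 7.44 and 7.21 in NP muscles (difference 0.51, SE 0.17, unadjusted p = 0.0199, adjusted p = 0.707). C3ar1, the receptor of the C3a fragment, differed by -0.34, A2m, the protease inhibitor alpha-2-macroglobulin, by -0.32, and C2, the protease of the classical C3 convertase, by -0.30. All NP+tau values of C3ar1 and A2m lay under the limit of 4.49. Both genes thus passed the filter through NP muscles alone, A2m through a single one (4.58), and the filter favoured their direction. All 9 further complement components kept had differences below 0 in muscle, against 45.4% of all genes. The shares of all genes at an unadjusted p below 0.05 were 4.24% higher and 2.09% lower.

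The response to taurine could be compared between tissues for the 19 members kept in both with the same probe set. For 0 of them did the liver and muscle differences differ from each other at an adjusted p below 0.05 (limma interaction, 0% of 25622 probe sets). This fit treated liver and muscle samples as separate animals, although both tissues were taken from each pup. At an unadjusted p below 0.05 there was 1 member of 19 (5.26%), Vwf, against 7.8% of all probe sets tested, a share near that of the array as a whole. For Vwf the difference was -1.61 in liver and 0.13 in muscle, and the liver difference minus the muscle difference was -1.74 (SE 0.42, unadjusted p = 0.00146, adjusted p = 0.542). In muscle Vwf lay at 8.24, 7.71 and 8.02 in NP+tau samples, against 7.46, 7.97 and 8.15 in NP samples, so the groups overlapped there. For C8g the differences were 1.57 in liver and -0.10 in muscle (unadjusted p = 0.0784), for Pros1 -0.76 and 0.19 (unadjusted p = 0.0946), and for Tfpi -0.04 and -0.46 (unadjusted p = 0.124). The contrast of Tfpi depended on the probe set, since its other probe sets gave -0.22 to -0.45 in liver and -0.05 to 0.08 in muscle. For Thbd the difference was 0.50 in both tissues, and the liver difference minus the muscle difference was -0.01 with an SE of 0.50, but each value rested on single samples, as given above.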

How the data were processed

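Liver and quadriceps muscle of 4-week-old NP+tau and NP offspring were measured on Affymetrix mouse arrays (12 samples). The authors normalised the arrays of a tissue together (quantile) and summarised them with RMA, and the deposited log2 values cover 45101 probe sets. Tissues were therefore compared only through differences, and no level was set against that of another probe set. After removal of 64 control probe sets, probe sets whose maximum over the 6 samples of a tissue lay under the 35th percentile of such maxima were left out (29274 kept). Gene symbols came from the annotation of the array (34958 probe sets with 1 symbol, 932 with several, 9211 with none). NP+tau was compared with NP by the moderated linear model of limma (version 3.58.1, R 4.3.3), adjusted by Benjamini-Hochberg over all probe sets kept. The code was tested on simulated data.

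The members, lists and tests were chosen with earlier results of these data known. Values per sample were given for members with an unadjusted p below 0.05 and for the 3 largest absolute differences in each tissue, for the 4 other pathway genes with the smallest p, and for further members chosen after their values were seen. Shares of all genes used the brightest probe set of each gene. The alternatives were other filters, an intensity trend, array weights, centring, a replicate block, Xist as a covariate, the mean of all probe sets of a gene, a looser threshold and omission of samples. Promoters came from RefSeq. Python 3.11.15 and matplotlib 3.10.9 drew the figures.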

Additional observations from a re-analysis of the deposited data

How the results depend on the processing

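The counts of members at an unadjusted p below 0.05 moved with the processing. The direction of every member named for its p or size held under all alternatives run. Other filters, an intensity trend and the replicate block cannot change the fitted difference, so they are no check of direction. These members were also chosen from the same data. In liver, with 4 lower and 0 higher as reported, array weights gave 8 lower and 1 higher, centring of the arrays 1 lower, the Xist level as a covariate 7 lower, and omission of both livers that stood apart (NP+tau replicate 1 and NP replicate 1) 8 lower. Leaving out 1 liver gave 1 to 7 lower and 0 to 5 higher. Members at an adjusted p below 0.05 numbered 0 under all other alternatives and 4 with the Xist covariate (Fgb, F11, Pros1 and Cfb, with Fgb at -0.69 and an adjusted p of 0.0278). That fit called 9449 probe sets in all, and since only NP+tau replicate 1 among the NP+tau livers was Xist-high, it sets that array against the NP livers. In muscle, with 2 lower and 1 higher as reported, no filter gave 4 lower, array weights 1 lower and the Xist covariate 0 lower. An intensity trend, centring and the mean of all probe sets each gave 0 higher. Leaving out 1 muscle gave 0 to 2 lower and 0 to 1 higher. The muscle median of -0.10 was -0.0468 with the 50th percentile filter, -0.154 with centring, -0.0273 with the Xist covariate and -0.174 to -0.0841 with 1 muscle left out.

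Samples with the same replicate number did not consistently deviate together (correlations of 0.02, -0.11 and 0.11 in liver and of -0.21, -0.27 and 0.33 in muscle). Samples with different numbers gave -0.13 to 0.13 in liver and -0.28 to 0.40 in muscle. With 3 samples a group, these correlations cannot settle whether the numbers pair the samples. With the replicate block, 2 members were lower and 1 higher in liver, and 1 was lower and 0 higher in muscle. Members that differed between tissues at an adjusted p below 0.05 numbered 0 in all fits, the one with the animal as a block included. That block took liver and muscle of the same diet and replicate number as the same animal, which the labels do not state. F3 had no value under the 50th percentile filter in liver. With 3 arrays a group, precision is limited by their number, and values near 4.60 in liver or 4.49 in muscle are close to background.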
